A study of Mus musculus with 3 samples.

Results

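Platelet-derived growth factors (PDGFs) and the collagen receptor kinases of the discoidin domain receptor (DDR) family were examined in NMuMG, a cell line of mouse mammary epithelium, with and without added MAFK, a small basic leucine zipper factor of the MAF family. The set holds 8 of the 19935 genes compared: the PDGF receptor genes Pdgfrb and Pdgfra, the ligand genes Pdgfa, Pdgfb, Pdgfc and Pdgfd, and the collagen receptor genes Ddr2 and Ddr1. The set was chosen by the array values themselves, because Pdgfrb and Ddr2 were higher in both MAFK clones, so the values of all 8 members against mock are a description and carry no test. Each member was read by 1 Affymetrix probe set with a single annotated symbol, and none shared a probe set with another gene.

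Gene expression was measured on 3 arrays, 1 for each cell line. Clone 4 and clone 10 are stable NMuMG lines whose transgene is pCAGIP-FLAG-MafK (MAFK, n = 2), each a single clone, and the mock line carries the vector pCAGIP alone (n = 1). All 3 lines were kept in medium with serum and puromycin. The labels name no dish, harvest or extraction that would make the arrays separate cultures, so any p-value measures only the spread between the 2 clone arrays, which stands in for that of mock. MAFK and the cloning of its lines cannot be told apart as sources of a difference, and in RNA from whole cultures fewer cells of a type and less RNA per cell cannot be told apart.

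PDGFs are secreted dimers that bind receptor tyrosine kinases of class III, the family that also holds KIT, CSF1R and FLT3. PDGFRα and PDGFRβ are best known from mesenchymal cells such as fibroblasts, pericytes and smooth muscle, where they drive division and migration. PDGF-A and PDGF-B leave the cell as active growth factors, while PDGF-C and PDGF-D carry a CUB domain that a protease must remove. DDR1 and DDR2 are receptor tyrosine kinases that bind triple-helical collagen instead of a growth factor. DDR1 is the form known from epithelia and DDR2 the form known from mesenchymal cells, where it binds fibrillar collagens.

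The values are log2 RMA values, in which 1 unit is a 2-fold difference in signal, and the array medians were 6.92 in clone 4, 6.93 in clone 10 and 6.89 in mock. The probe set of Mafk read 8.74 in clone 4, 8.59 in clone 10 and 8.49 in mock. Whether it can detect the transgene was not analysed here, so it is no check of the labels. Among the epithelial genes, of which the following were singled out after their values were seen, the keratin gene Krt8 was bright on all arrays, at 13.18 in clone 4, 13.31 in clone 10 and 13.67 in mock. Krt19, another keratin gene, read 12.25, 12.08 and 11.99 in the same order. Krt18, also a keratin gene, was lower in the clones, at 10.92, 11.09 and 11.95, and so was Krt14, at 6.95, 6.87 and 7.65. Of the 17 epithelial markers, 6 were below mock in both clones and 5 above it in both, where all genes had 17.9% and 33.7%. Other epithelial genes were not bright: the basal keratin gene Krt5 read 6.34, Epcam 5.58 and Grhl2 5.64 on every array, below the array medians. For genes other than the members, limma's moderated test was fitted to all genes. A gene is said to have risen or fallen where each clone was 2-fold or more from mock, in 1 direction, with an adjusted p under 0.05.

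Promoter sequences are shown for Pdgfc and Ddr2, which each differed from mock by over 2-fold in both clones, because small MAF proteins act by binding DNA. RefSeq promoter windows of GRCm38.p6, from 250 bases before to 50 bases after an annotated start, were found for 6 of the 8 members, in 10 windows. No window was found for Pdgfrb or Pdgfb, so neither was searched for motifs. Capitals mark letters that match TGACNNNGC, the core of the antioxidant response element that small MAF and CNC factors bind together.
Pdgfc, chr3:81036166-81036465, plus strand: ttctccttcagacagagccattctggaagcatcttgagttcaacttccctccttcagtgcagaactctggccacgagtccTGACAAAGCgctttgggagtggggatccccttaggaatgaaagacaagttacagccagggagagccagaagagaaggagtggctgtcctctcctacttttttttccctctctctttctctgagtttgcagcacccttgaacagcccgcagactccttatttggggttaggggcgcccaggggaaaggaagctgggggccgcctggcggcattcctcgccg
Ddr2, chr1:170088895-170089194, minus strand: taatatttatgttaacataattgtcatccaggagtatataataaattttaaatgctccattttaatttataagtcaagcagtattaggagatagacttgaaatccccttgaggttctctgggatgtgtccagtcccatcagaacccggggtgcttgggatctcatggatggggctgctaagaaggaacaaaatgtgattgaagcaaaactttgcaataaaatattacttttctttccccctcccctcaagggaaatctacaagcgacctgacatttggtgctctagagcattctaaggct

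The windows of the 2 genes differ in base composition and in matches. The Ddr2 window was AT-rich, with 39.0% G and C and 2 CpG dinucleotides, and 8.92% of the 32851 RefSeq promoter windows had as little G and C or less. The Pdgfc window had 55.0% G and C and 8 CpG dinucleotides, close to the median window at 52.7% and 7. The motifs searched, on both strands, were TGACNNNGC, the MAF core TGCTGA and the AP-1 site TGAGTCA. TGACNNNGC was present in 12.4% of all windows, TGCTGA in 19.5% and TGAGTCA in 5.20%. Pdgfc held 1 match to TGACNNNGC, which begins at position -170 from the annotated start, and Ddr2 held no match to any of the motifs. Pdgfa and Pdgfd, which were not 2-fold apart from mock, each held 1 match to TGACNNNGC, and Ddr1 held 1 match to TGAGTCA in 1 of its 4 windows. No window of these members matched TGCTGA, although the motifs can overlap. These matches describe letters in a short window and are not binding sites.

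Of the receptors, the gene of the PDGF receptor β had the largest difference from mock among the 8 members. Pdgfrb read 9.95 in clone 4 and 10.30 in clone 10, against 6.78 in mock. Both clones were far above mock, where the signal lay just below the array median. On the log2 scale the clones exceeded mock by 3.17 (clone 4) and 3.52 (clone 10), which is 8.99-fold and 11.5-fold. By the smaller of the clones' differences Pdgfrb ranked 17 among all genes. The gene of the other PDGF receptor did not share this pattern: Pdgfra read 6.53 in clone 4 and 6.54 in clone 10, against 6.69 in mock. Its signal was below the array median on all 3 arrays, and the clones lay slightly below mock, by -0.15 and -0.14. Within each clone the difference of Pdgfrb from mock exceeded that of Pdgfra, by 3.32 (clone 4) and 3.66 (clone 10) log2 units.

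The collagen receptor kinases showed a like contrast between the members of a pair. Ddr2 read 10.71 in clone 4 and 10.83 in clone 10, against 7.77 in mock, so that both clones were far above mock. These log2 differences of 2.94 (clone 4) and 3.07 (clone 10) are 7.69-fold and 8.38-fold, and Ddr2 ranked 30 among all genes. Ddr1 read 9.38 in clone 4 and 8.84 in clone 10, against 9.53 in mock. Both clones were below mock, at log2 differences of -0.15 (clone 4) and -0.69 (clone 10), and neither reached 2-fold. The difference of Ddr2 from mock exceeded that of Ddr1 by 3.09 (clone 4) and 3.75 (clone 10).

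**Figure D1:**
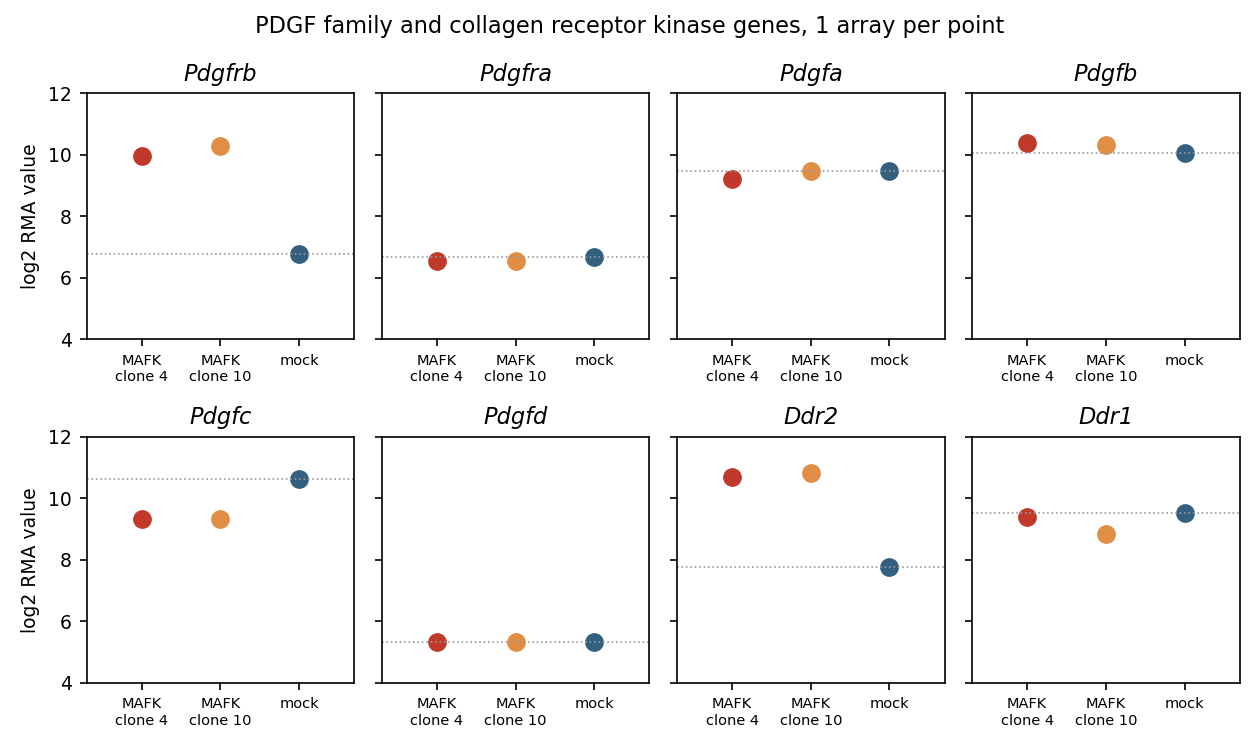
Log2 RMA value of each member (vertical axis) on the arrays of MAFK clone 4, MAFK clone 10 and mock (horizontal axis), 1 array per point, with a dotted line at the mock value. Pdgfrb and Ddr2 lie about 3 units above mock in both clones, Pdgfc lies -1.28 from mock in both, and the other 5 genes stay within 1 unit of mock.

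Among the ligands, Pdgfc was lower in the MAFK clones and the rest were close to mock. Pdgfc, whose product signals chiefly through PDGFRα, read 9.35 in clone 4 and 9.35 in clone 10, against 10.62 in mock. The clones had the same value to every digit deposited, and both lay -1.28 from mock on the log2 scale, 2.42-fold lower. RMA summarises probes by median polish, which often returns equal values on few arrays: 55.5% of all genes had equal values in the clones. The SD of 0 for Pdgfc is therefore no measure of its precision. Among the 361 genes that were lower by 2-fold or more in each clone, Pdgfc ranked 237, so its difference was one of the smaller ones.

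Pdgfb, whose product binds both receptors and is the main ligand of PDGFRβ, read 10.39 in clone 4 and 10.32 in clone 10, against 10.06 in mock. Both clones were slightly higher than mock, by 1.26-fold and 1.19-fold. Pdgfa, whose product is a ligand of PDGFRα, read 9.21 in clone 4 and 9.48 in clone 10, against 9.48 in mock. Clone 4 was a little lower and clone 10 equal to mock within 0.0044, so the clones gave no shared direction. Pdgfd, whose product is a ligand of PDGFRβ, read 5.31 on every array, far below the array medians, and a value there cannot show whether the transcript is present.

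By count, 2 of the 8 members were 2-fold or more above mock in each clone (Pdgfrb and Ddr2) and 1 was at least 2-fold lower (Pdgfc). Across all genes 1.19% were that much higher in each clone and 1.81% that much lower. Since the members were chosen for these values, nothing is read from the counts beside that background. In direction, 3 members were above mock in both clones, 3 were below it in both, 1 was split and 1 was equal on all arrays, while 33.7% of all genes were above mock in both clones and 17.9% below it in both. The median over the members was a difference of -0.07 (clone 4) and 0.00 (clone 10), and that of all genes was 0 in each. The 2 clones share the mock array, so an error in that array moves both differences of a gene together.

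**Figure D2:**
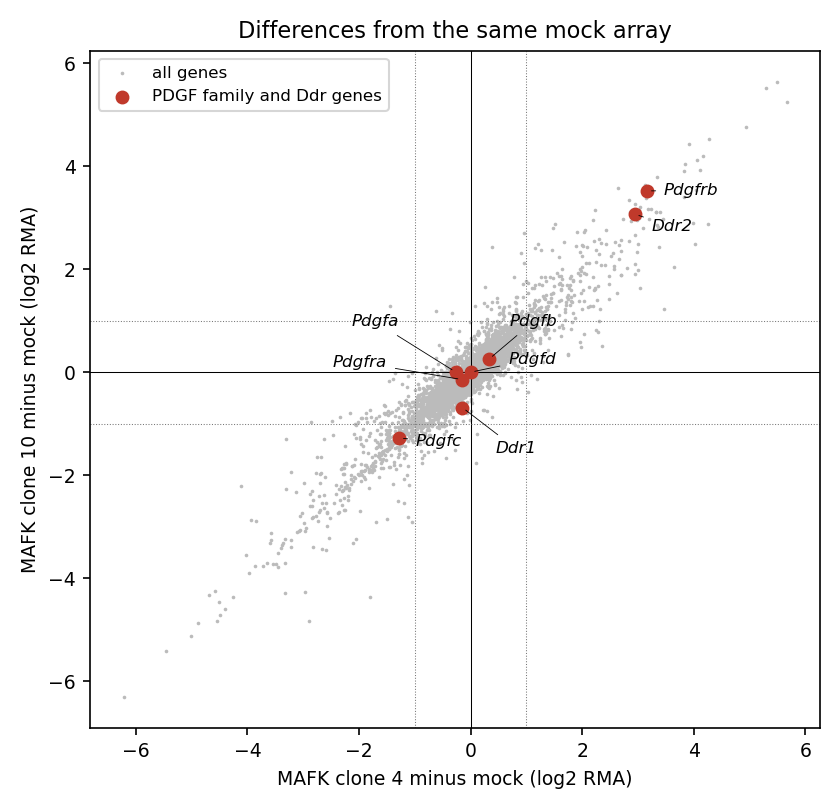
Difference from mock in clone 4 (horizontal axis) and in clone 10 (vertical axis), both in log2 RMA units, for all 19935 genes in grey and the 8 members in red, with dotted lines at 2-fold. Pdgfrb and Ddr2 lie in the upper right near 3 on both axes, Pdgfc lies just past the line at -1, and both axes use the same mock array.

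Between the clones the members differed little. Ddr1 had the widest gap, at 8.84 in clone 10 and 9.38 in clone 4, or -0.54 on the log2 scale, and 1.77% of all genes had a gap at least as wide. Pdgfrb was 0.35 higher in clone 10, Pdgfa 0.27 and Ddr2 0.12, while Pdgfb differed by -0.08 and Pdgfra by 0.01. No member was 2-fold apart between clone 10 and clone 4. Over all genes 0.221% were at least 2-fold higher in clone 10 and 0.221% at least 2-fold lower. With 1 array for each clone these gaps have no test.

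The position of the members in the genome was compared with the values of the genes beside them, because clonal lines can differ in chromosome content. Beside each member the 3 nearest measured protein-coding genes on either side were taken in the gene order of GRCm38.p6. Pdgfrb lies on chromosome 18 next to Csf1r, the gene of another class III receptor, which read 6.21 in clone 4 and 6.21 in clone 10, against 6.12 in mock. On its other side Cdx1 read 7.51 and 7.49 in the clones, against 7.41 in mock. None of the 6 neighbours of Pdgfrb was 2-fold higher, and the sulfate transporter gene Slc26a2 was 2.67-fold lower in MAFK without passing (limma adjusted p = 0.0514). Ddr2 lies on chromosome 1 between Hsd17b7, an enzyme gene of cholesterol synthesis that was 2.22-fold lower (limma adjusted p = 0.0526), and Uap1, which was 0.26 higher in each clone on the log2 scale. Of the 6 neighbours of Pdgfc on chromosome 3, none was 2-fold apart, and their differences ran from -0.02 to 0.36 in clone 4 and from -0.02 to 0.24 in clone 10. Pdgfd on chromosome 9, equal on all arrays, lies beside the caspase gene Casp12, which rose to 9.21 in clone 4 and 8.94 in clone 10, against 6.38 in mock (limma adjusted p = 0.0461). Of the 6 neighbours of Pdgfd 2 were at least 2-fold higher, Casp12 and Casp4, and of those of Pdgfa 1 was, Fam20c, with none lower beside either. Beside Ddr1 1 neighbour was at least 2-fold lower and none higher, as was 1 of the 6 beside Ddr2, and beside Pdgfra and Pdgfb none was 2-fold apart. Over all genes 1.19% were at least 2-fold higher in each clone and 1.81% lower. The neighbours named here were singled out after their values were seen. The mean difference over the 471 genes of chromosome 18 was -0.04 in clone 4 and -0.03 in clone 10, and over the 1122 genes of chromosome 1 it was -0.06 and -0.05.

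The genes with the pattern most like each of the 2 higher receptors were found by the distance between their pairs of differences from mock, over the 2 clones, among the 10483 genes at or above the overall probe set median on some array. The nearest to Pdgfrb were Fstl1, a secreted follistatin-like glycoprotein gene (distance 0.13), Scara3 (0.14), the atypical cadherin gene Fat4 (0.32), the T-box factor gene Tbx15 (0.33) and Klhl22 (0.34). Fstl1 read 9.06 in clone 4 and 9.57 in clone 10, against 5.93 in mock. The nearest to Ddr2 were the filamin gene Flnc (distance 0.09), Olfml3 (0.10), the fatty acid transporter gene Slc27a1 (0.11), the coactivator gene Ppargc1a (0.12) and the phospholipase gene Pla2g4a (0.14). Ppargc1a read 10.62 in clone 4 and 10.59 in clone 10, against 7.65 in mock. Pdgfrb and Ddr2 lay 0.50 apart, and Ddr2 ranked 13 among the genes nearest to Pdgfrb. Likeness over 2 arrays that share a control is a description of these values.

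The other receptor tyrosine kinases give the setting for the 4 receptors. Of the 54 others listed, 52 were measured, and with the 4 members this makes 56. By the smaller of the clones' differences Pdgfrb ranked 1 and Ddr2 ranked 2 of these 56, which follows in part from their being chosen as high. By the 2-fold rule 1.19% of all genes were higher in each clone and 1.81% lower. By the limma rule 0.401% of all genes rose and 0.762% fell. Of the 52 other kinases 3 were at least 2-fold higher and 2 lower, none rose and 1 fell. All 3 of the higher genes had an unadjusted p under 0.05, and limma with its prior taken from all genes called 1 of them, Epha7. The median of this list was 0.00 in each clone, and 14 of its genes had the same value on all arrays. Of the 52 genes, 26 were below the median of all probe sets on every array, where a difference may not show.

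Epha4, a receptor of ephrins, was the kinase that fell: it read 8.65 in clone 4 and 8.75 in clone 10, against 10.55 in mock. Its log2 difference was -1.85 ± 0.08 (SE, limma adjusted p = 0.0365). Flt1, a receptor of VEGF-A related to the PDGF receptors, read 9.78 in clone 4 and 9.18 in clone 10, against 7.56 in mock. It was thus 3.79-fold higher without passing (limma adjusted p = 0.144). Mertk, a receptor of the bridging protein GAS6, was 2.81-fold higher in MAFK (limma adjusted p = 0.218). The ephrin receptor gene Epha7 read 10.37 and 10.56 in the clones, against 9.17 in mock, also without passing (limma adjusted p = 0.0730). Ror1, a receptor of Wnt ligands, was 2.22-fold lower (limma adjusted p = 0.0892). The class III relatives Kit and Flt3, singled out after their values were seen, had equal values on all arrays, below the array medians.

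**Figure D3:**
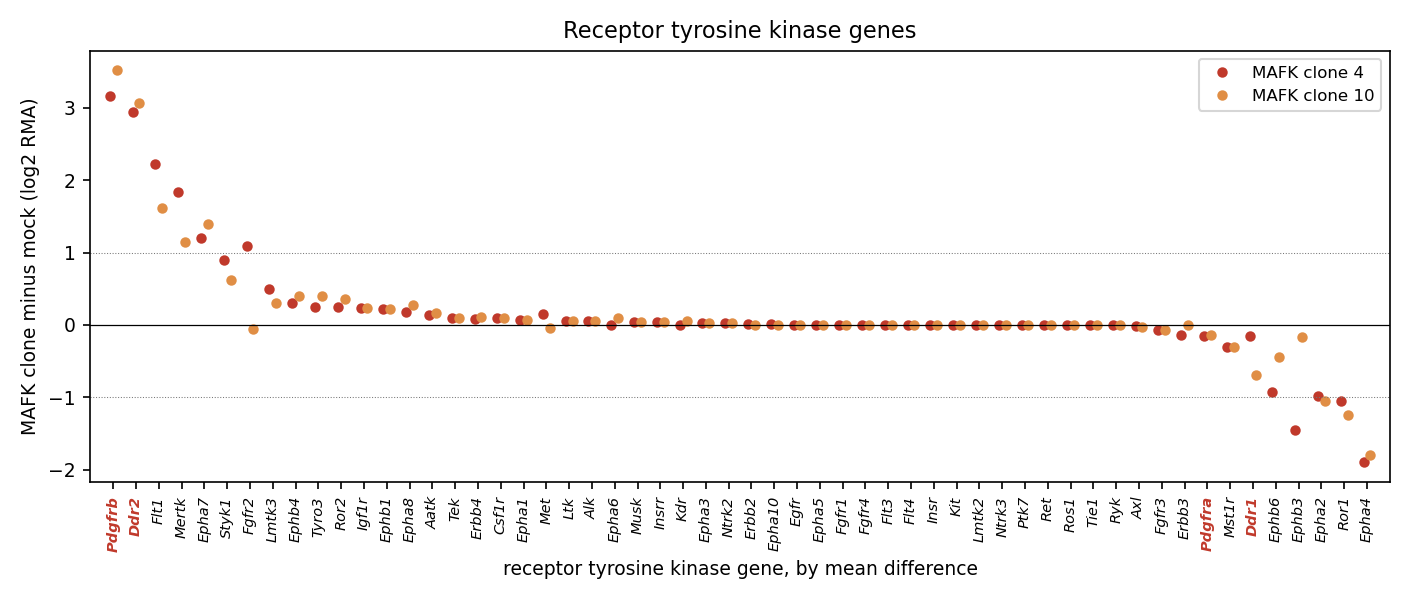
Difference from mock in log2 RMA units (vertical axis) of 56 receptor tyrosine kinase genes (horizontal axis, ordered by mean difference), with clone 4 in red, clone 10 in orange and members named in red. Pdgfrb and Ddr2 stand above all other kinases, Flt1, Mertk and Epha7 follow above the 2-fold line, and most of the others lie at or near 0.

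Genes that carry or curb the PDGF signal were mostly close to mock. As the setting for their counts, 1.19% of all genes were at least 2-fold higher in each clone and 1.81% lower. Of 40 listed signal effectors 34 were measured, 1 was at least 2-fold lower and none higher, and the median of their differences was 0 (clone 4) and 0.01 (clone 10). None rose or fell by the limma rule, although 5 were above mock and 6 below it at an unadjusted p under 0.05, and limma with its prior from all genes also called none. Over all genes 9.2% were above mock and 8.26% below it at that unadjusted p. The 1 lower gene was Grb7, which encodes an adaptor that docks on activated receptors, at 7.45 in clone 4 and 7.12 in clone 10, against 8.48 in mock (limma adjusted p = 0.136). Of 28 measured genes that process PDGFs or attenuate their receptors, 1 was at least 2-fold higher, 2 were lower, none rose and 1 fell. The higher gene had an unadjusted p under 0.05, and limma with its prior from all genes did not call it either.

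Pcsk6, which encodes a proprotein convertase of the kind that cleaves growth factor precursors, was the attenuation and processing gene that fell. It read 7.06 in clone 4 and 7.14 in clone 10, against 8.71 in mock (log2 difference -1.60 ± 0.08 SE, limma adjusted p = 0.0409). Lrp1, an endocytic receptor that forms a complex with PDGFRβ, read 8.50 in clone 4 and 9.75 in clone 10, against 10.97 in mock. Both clones were lower, but they lay 1.25 apart from each other and the gene did not pass (limma adjusted p = 0.329). Dusp4, a phosphatase that switches off MAP kinases, was 3.20-fold higher (limma adjusted p = 0.0997). The median of the list's differences was 0.03 (clone 4) and 0 (clone 10).

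Of 29 measured genes known to respond to PDGF or serum, 8 were above mock in both clones and 12 below it in both, where all genes had 33.7% and 17.9%. Among them none was at least 2-fold higher, 3 were lower, none rose and 2 fell, with 3 above mock and 7 below it at an unadjusted p under 0.05. Over all genes 1.19% were at least 2-fold higher and 1.81% lower in each clone. At that unadjusted p 9.2% of all genes were above mock and 8.26% below it. Limma with its prior from all genes likewise called none higher. Ptgs2, the cyclooxygenase gene of prostaglandin synthesis, read 8.29 in clone 4 and 8.56 in clone 10, against 11.88 in mock (limma adjusted p = 0.0357). Ier3, an immediate early gene that is also the neighbour of Ddr1 on chromosome 17, read 7.92 and 7.88 in the clones, against 9.14 in mock (limma adjusted p = 0.0461). Dusp1, a phosphatase gene of the immediate early class that was singled out after its values were seen, was above mock, at 10.95 in clone 4 and 10.49 in clone 10, against 9.64 in mock (2.11-fold, limma adjusted p = 0.207). Btg2, which restrains division, lay -1.16 (clone 4) and -1.60 (clone 10) from its mock value of 9.16 without passing (limma adjusted p = 0.151). The median of the list's differences was 0 (clone 4) and -0.10 (clone 10).

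The collagens that DDR2 and DDR1 bind did not differ from mock by 2-fold in both clones in any of the 21 genes measured. None rose or fell under either limma prior, with 5 above mock and none below it at an unadjusted p under 0.05, where all genes had 9.2% and 8.26%. The median difference was 0.12 in each clone, and 13 genes lay above mock in both clones against 2 below it in both, where all genes had 33.7% and 17.9%. Of the 21 collagen genes, 8 were below the median of all probe sets on every array, where a difference may not show. The following collagens and integrins were singled out after their values were seen. Col1a2, a chain of fibrillar collagen I, was above its mock value of 7.14 by 0.85 (clone 4) and 0.58 (clone 10) on the log2 scale. Its partner Col1a1 was closer to mock, at 7.75 and 7.78 in the clones, against 7.47. Col6a1 and Col6a2, chains of collagen VI, were lower, by -1.87 and -0.79 for Col6a1 and by -1.86 and -0.98 for Col6a2 in clone 4 and clone 10.

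The genes of other collagen receptors had no difference from mock shared by both clones at 2-fold. Below the median of all probe sets on every array, where a difference may not show, lay 4 of the 8 measured. Of the 8 measured, none rose or fell under either limma prior, with 1 above mock at an unadjusted p under 0.05, where all genes had 9.2%. The collagen-binding integrin gene Itga1 read 8.74 in clone 4 and 7.38 in clone 10, against 6.79 in mock. Itga2, another collagen-binding integrin gene, read 8.25 in clone 4 and 7.35 in clone 10, against 9.12 in mock. Itgb1, which encodes their shared β subunit, read 11.26 in clone 4 and 11.28 in clone 10, against 11.26 in mock.

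Of 19 measured genes described as effectors or targets of the DDRs, 10 lay below mock in both clones and 5 above it, where all genes had 17.9% below and 33.7% above. Among them 3 were at least 2-fold lower and none higher, 2 fell and none rose, and 8 were below mock and none above it at an unadjusted p under 0.05. At that unadjusted p 8.26% of all genes were below mock and 9.2% above it. Limma with its prior from all genes also called none higher. The median of the list's differences was -0.52 (clone 4) and -0.41 (clone 10), against 0 in each clone for all genes. Equal values on all 3 arrays were found for 34.3% of all genes and for 3 of these 19. At least 2-fold higher in each clone were 1.19% of all genes, and 1.81% were that much lower. This list, like the others, was chosen with earlier results of these data known. Its shares and median beside those of all genes are therefore a description. Mmp13, a collagenase gene that DDR2 is known to induce in cartilage cells, read 5.77 in clone 4 and 5.49 in clone 10, against 10.31 in mock (limma adjusted p = 0.0311). Cdh1, the gene of E-cadherin, with which DDR1 associates at cell contacts, read 6.85 and 6.64 in the clones, against 11.35 in mock (limma adjusted p = 0.0282). Mmp14, a membrane-bound collagenase gene, read 8.63 in clone 4 and 9.20 in clone 10, against 10.51 in mock (limma adjusted p = 0.164). Snai1, whose product DDR2 is known to stabilise, read 8.41 and 8.75 in the clones, against 9.16 in mock (limma adjusted p = 0.297).

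**Figure D4:**
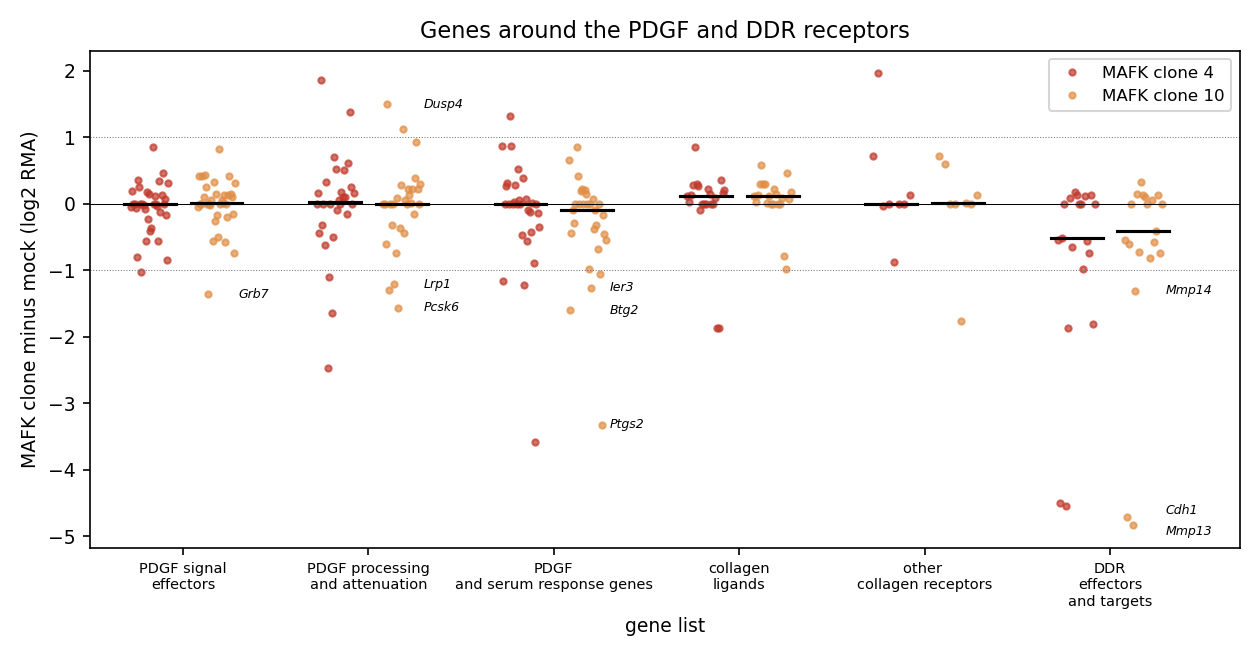
Difference from mock in log2 RMA units (vertical axis) of the genes in 6 lists around the PDGF and DDR receptors (horizontal axis), with clone 4 in red, clone 10 in orange, black bars at the medians and names at genes 2-fold or more from mock in each clone. The medians lie at or near 0 except for the DDR effectors and targets, at -0.52 and -0.41.

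For markers of cell types that carry PDGFRβ or DDR2, the mean level of each list was near mock, although single genes were not. Below the median of all probe sets on every array, where a difference may not show, lay 8 pericyte and smooth muscle markers and 6 fibroblast markers. Of 12 pericyte and smooth muscle markers, 1 was at least 2-fold higher and none lower, and the mean level over the list was 6.71 in clone 4, 6.74 in clone 10 and 6.53 in mock. The higher gene was Mcam, an adhesion molecule also known as CD146, at 9.93 in clone 4 and 10.27 in clone 10, against 7.50 in mock (limma adjusted p = 0.0593). It passed with the prior from all genes (limma adjusted p = 0.0448). Rgs5, Des, Cspg4, Abcc9 and Tagln had equal values on all arrays, between 5.54 and 6.59 and thus below the array medians. Of 14 fibroblast markers, 1 was at least 2-fold higher and 2 lower, with a mean level of 7.45 in clone 4, 7.56 in clone 10 and 7.53 in mock. Differences in opposite directions offset each other in that mean. Across all genes 1.19% were at least 2-fold higher in each clone and 1.81% lower.

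Among the fibroblast markers Fn1, the fibronectin gene, rose to 12.40 in clone 4 and 12.45 in clone 10, against 10.33 in mock (limma adjusted p = 0.0311). Dcn and S100a4 were 3.91-fold and 4.60-fold lower without passing (limma adjusted p = 0.0711 and 0.231), and Lum, Fap and Prrx1 were equal on all arrays and below the array medians. All 8 endothelial markers were below the median of all probe sets on every array, none was 2-fold apart, and their mean level was 6.05 in clone 4, 6.08 in clone 10 and 6.04 in mock. Of 7 immune markers 1 was at least 2-fold lower, Cd14, at 7.42 in clone 4 and 7.83 in clone 10, against 9.69 in mock (limma adjusted p = 0.0907), and the mean level was 6.43 in clone 4, 6.51 in clone 10 and 6.73 in mock. Of 17 epithelial markers 1 was at least 2-fold lower, Cdh1, and the mean level was 7.58 in clone 4, 7.57 in clone 10 and 7.96 in mock. In direction, 6 of the 17 were below mock in both clones and 5 above it in both, where all genes had 17.9% and 33.7%. On every array 7 of them were below the median of all probe sets. The part of any other cell type in the values of Pdgfrb and Ddr2 was not tested.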

How the data were processed

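The authors deposited log2 values for probe sets, computed with RMA according to the submitters' processing notes. The arrays were hybridized with biotin-labelled DNA prepared with the Ambion WT Expression Kit from 100 ng of total RNA per the labels' protocols. A version, filter and genome build are not given in the sources used here, and the number of arrays (3) limits the precision. Of 28815 probe sets, 21780 had 1 gene symbol in the platform annotation, 1605 several and 5430 none, and only the first were named. A RefSeq gene table of GRCm38.p6, matched on Entrez identifier, gave current symbols for 21689 of them. The probe set with the highest mean stood for a gene.

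The members and gene lists were chosen with earlier results of these data known. Named genes were all members, listed genes 2-fold or more from mock in each clone, and the 5 nearest in pattern to Pdgfrb and to Ddr2. Every other gene named with values, such as Snai1, Dusp1, the keratins, Epcam, Grhl2, neighbours, collagens, integrins and markers equal on all arrays, was chosen after its values were seen. Gene names left out of that search were predicted genes, smell receptors, small RNAs and immune receptor segments. Listed genes were tested with limma 3.58.1 in R 4.3.3 (lmFit, moderated and two-sided, Benjamini-Hochberg over 19935 genes) across the 3 arrays (residual degrees of freedom: 1). Because 11062 genes had equal clone values, the prior (1.93 degrees of freedom, SD 0.0694) was estimated from the others and applied to all, so ties still favour passing. The fit was tested on simulated data in which mock was given the same spread as the clones. With 1 mock array, whether that setting holds cannot be checked. In all, 7 pathway lists and 5 marker lists were used. Alternatives were a second quantile normalization, leaving out low genes, the mean of a gene's probe sets, 2 other priors and leaving out each clone.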

Additional observations from a re-analysis of the deposited data

How the results depend on the processing

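The counts of members at least 2-fold higher (2) or lower (1) in both clones were the same after a second quantile normalization, with low genes left out, with the mean of a gene's probe sets and without either clone. Apart from the normalization, these settings could not lower the counts, so they are no check of them. Each member had 1 probe set, the genes counted were not low genes, and leaving out a clone only eases the rule. Of 38 recomputed member differences, 3 moved by more than the SD between the clones, all after the second quantile normalization: Pdgfra to -0.19, Pdgfc to -1.25 and Pdgfd to -0.01. That SD was 0 for Pdgfc and Pdgfd and 0.0086 for Pdgfra, so a very small shift counted as a move, while for Ddr1 it was 0.38. The filter and the probe set mean could move no member. Leaving out a clone shifts the mean of the clones by no more than that SD, so it could move none by this rule either. Only the values after the second quantile normalization could move. No member was 2-fold apart between the clones under any of the normalization, filter or probe set alternatives. Of 187 measured genes in the pathway lists, 0 rose and 6 fell. With the prior from all genes 1 rose, and with an intensity trend 1 rose, in each case Epha7 (limma adjusted p = 0.0481 and 0.0399). Ptgs2 did not pass after a second quantile normalization (limma adjusted p = 0.0566), while Ror1 passed with the trend (0.0497). Ier3 did not pass where every gene was the mean of its probe sets (limma adjusted p = 0.0507), although its own difference stayed at -1.24. Among the marker genes, Mcam passed with the prior from all genes and with the trend (limma adjusted p = 0.0448 and 0.0367), and Dcn passed with the trend (0.0435), in priors applied to the markers after seeing the data. By the 2-fold rule 4 of the 187 listed genes (2.14%) were higher and 11 (5.88%) lower, where all genes had 1.19% and 1.81%. With 1 clone left out in turn, counts added after seeing the data, 5 to 8 were higher and 15 to 16 lower, and the 8 were counted without clone 10. With 1 clone and 1 mock array limma has no residual degrees of freedom, so no test was run there. No paired analysis was possible because mock has 1 array. RMA compresses differences at low signal, so the fold values of Pdgfrb, whose mock signal was near the array median, depend on that scale.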
